A study of Mus musculus with 8 samples.

Results

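The Mediator complex is read here through the genes of its subunits. They are 32 genes, chosen by symbol, each taken through array probes whose RefSeq accession names that symbol. Of the 32, 31 were measured among 17740 genes tested, and no probe was matched to Med6. Total RNA of whole mouse skin was hybridised to 8 one-colour arrays, 4 of skin labelled DTG and 4 of skin labelled Control. DTG is not spelled out in the labels. The series title speaks of overexpression of Musashi1, an RNA-binding protein. All samples are labelled male, and the labels used here name no strain, age, transgene promoter or number of animals. With no statement that samples came from separate animals, the p-values cover the sample-to-sample spread alone, part of which could be technical.

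Mediator is a large assembly that carries signals from DNA-bound transcription factors to RNA polymerase II. The head and middle modules hold the polymerase, the tail receives many activators, and MED14 runs through the complex as its backbone. A separable kinase module, built on CDK8 or CDK19 with cyclin C, MED12 and MED13 or MED13L, can dock on this core and control its contact with the polymerase. In keratinocytes MED1 is known as a coactivator of the vitamin D receptor.

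On Msi1 probe A_55_P2062688 the level, meaning a log2 signal minus the 75th percentile of its array, was 3.85 to 4.16 on the 3 DTG arrays with a usable spot. It was -5.92 to -1.48 on the 4 Control arrays. The other Msi1 probe gave -3.36 to -3.03 in DTG and -3.36 to -2.80 in Control. By their Xist levels 5 arrays (DTG 1, 3 and 4 and Control 2 and 4) lay at 0.08 to 0.73 and 3 arrays (DTG 2 and Control 1 and 3) at -8.56 to -6.89. Eif2s3y, on the Y chromosome, was low on those 5 arrays and high on the other 3. The 5 arrays go against the male label, and results for both classes are given with the genes they touch. On DTG arrays 68.8% to 71.6% of spots were well above background, and on Control arrays 79.5% to 85.1%. Negative-control spots averaged 4.27 to 4.69 on DTG arrays and 2.40 to 3.29 on Control arrays (log2 signal, not scaled). DTG arrays occupied 1 row of the slide and Control arrays the other, and the row's part cannot be told apart from the group's. All 8 keratinocyte markers, all 6 fibroblast markers and all 6 skeletal muscle markers checked were well above background on every array.

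Promoter sequences of members that were higher or lower in DTG are shown, to let the stretches in front of genes that moved in the same or opposite direction be read side by side. Each is the 100 bases before an annotated transcription start, 5′ to 3′ on the strand of the gene, from RefSeq on GRCm38.p6. Capitals mark matches on either strand to any of 7 short motifs: an ETS core (CCGGAAG), an NRF1 motif (GCGCA and GCGC with any 1 base between), a YY1 motif (AANATGGC), a GC box (GGGCGG), a CRE (TGACGTCA), a CCAAT box (CCAAT) and a TATA box (TATAAA). None of these motifs contains another, but matches can share bases, as the ETS cores on opposite strands of Med10 do. The first 5 genes were higher in DTG, and Med14 and Med25 were lower. For Med7 and Med10, which have 2 annotated starts each, 1 is shown.
Med7 chr11:46436847-46436946 (+ strand): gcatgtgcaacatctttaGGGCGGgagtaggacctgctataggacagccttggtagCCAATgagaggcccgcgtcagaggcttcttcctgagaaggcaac
Med10 chr13:69809782-69809881 (+ strand): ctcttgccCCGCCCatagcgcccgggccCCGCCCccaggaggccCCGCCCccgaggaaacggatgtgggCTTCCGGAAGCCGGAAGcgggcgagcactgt
Med31 chr11:72215593-72215692 (- strand): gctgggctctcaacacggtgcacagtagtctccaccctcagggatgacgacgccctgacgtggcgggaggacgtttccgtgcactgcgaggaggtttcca
Med4 chr14:73509949-73510048 (+ strand): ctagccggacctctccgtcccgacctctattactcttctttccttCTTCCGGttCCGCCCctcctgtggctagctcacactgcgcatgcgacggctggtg
Med22 chr2:26910643-26910742 (- strand): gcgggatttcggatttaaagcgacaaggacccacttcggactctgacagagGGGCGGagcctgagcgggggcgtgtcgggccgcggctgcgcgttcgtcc
Med14 chrX:12761974-12762073 (- strand): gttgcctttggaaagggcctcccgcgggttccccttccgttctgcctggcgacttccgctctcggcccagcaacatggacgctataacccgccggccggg
Med25 chr7:44892425-44892524 (- strand): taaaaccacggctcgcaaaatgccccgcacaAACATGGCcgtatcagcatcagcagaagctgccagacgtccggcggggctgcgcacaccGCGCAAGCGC
In these stretches a GC box stood in front of Med7, Med10, Med4 and Med22, an ETS core in front of Med10 and Med4, and a CCAAT box in front of Med7. The Med25 stretch held an NRF1 and a YY1 motif, and the stretches of Med31, which was higher, and Med14, which was lower, held none of the 7. The stretch at the other Med10 start also held none. Over the 250 bases before the start, 27 of the 32 members had an entry. A GC box lay in 18 of those 27 (66.7%), against 35.4% of 27025 genes with an entry, and an ETS core in 6 (22.2%) against 7.83%. The CCAAT box lay in 11 members (40.7%), against 37.5% of all genes, and the TATA box in 3 (11.1%), against 14.3%. The NRF1 motif lay in 4 members (14.8%), against 4.23%, the YY1 motif in 2 (7.41%), against 4.49%, and the CRE in 1 (3.7%), against 1.77%. Of the 7 members called higher in DTG, 6 held a GC box and 2 an ETS core, and of the 2 members called lower that had an entry, 1 held each. These matches describe letters in a window.

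Most of the subunit genes called higher in DTG skin belonged to the middle module (Med4, Med7, Med9, Med10 and Med31). The others were Med22 of the head and Med13l of the kinase module. Med14, the gene of the backbone subunit, and the tail genes Med23 and Med25 were called lower. Called or not, 21 of the 31 measured members read above 0, with 8 in the head, 8 in the middle, 3 in the kinase module and 2 in the tail. By limma over all 17740 genes, 10 of the 31 measured members were called at an adjusted p under 0.05, 7 higher and 3 lower in DTG. Of all genes tested, 32.5% were called, 11.2% higher and 21.3% lower. Among the members 32.3% were called. The members were proposed with results of these arrays in view, so their changes and calls describe them and test nothing about the complex. The changes were small, with a largest increase of 1.62-fold for Med10 and a largest decrease to 0.657-fold for Med14. Over the 31 members the median log2 fold change was 0.09, against -0.15 for all genes tested. The plot of fold changes by module shows every member.

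**Figure D1:**
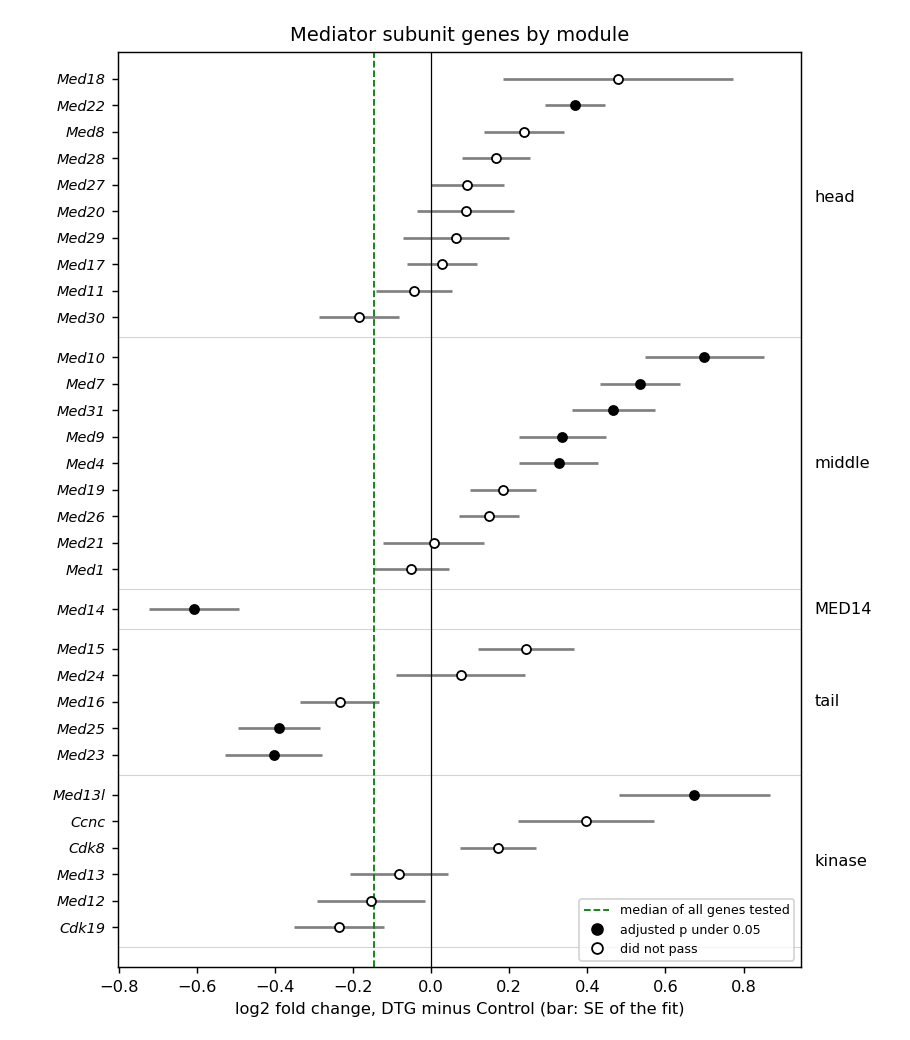
Log2 fold change of the 31 measured Mediator genes, DTG minus Control, grouped by module, with the standard error of the fit as bars. Filled points passed an adjusted p of 0.05, and the dashed line marks the median of all genes tested, -0.15. All 9 middle module genes lie to its right.

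In the middle module 5 of 9 genes rose and 4 did not pass, and all 9 lay above the median of all genes. The module's median log2 fold change was 0.33, with values from -0.05 to 0.70. Med7 encodes the subunit that pairs with MED21 in the hinge of the module. Its level was 2.18, 1.95, 1.79 and 1.95 on DTG arrays 1 to 4, against 1.36, 1.41, 1.5 and 1.47 on Control arrays 1 to 4. The lowest DTG value, 1.79, lay above the highest Control value, 1.5, and Med7 rose by 0.54 (SE 0.10, adjusted p = 0.0059). Med10 encodes a small subunit of the same module. Its level was 1.53, 1.42, 1.45 and 1.15 on DTG arrays 1 to 4, against 0.45, 0.93, 0.92 and 0.46 on Control arrays 1 to 4. The Control arrays fell into a lower pair, 1 and 4, and a higher pair, 2 and 3, and all DTG arrays lay above both. Med10 rose by 0.70 (SE 0.15, adjusted p = 0.010).

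Med31, whose product is one of the subunits conserved from yeast, had levels of 2.08, 2.02, 2.34 and 2.17 on DTG arrays 1 to 4, against 1.80, 1.53, 1.77 and 1.65 on Control arrays 1 to 4. The groups did not overlap, and Med31 rose by 0.47 (SE 0.11, adjusted p = 0.012). Med4, a core subunit of the module, had levels of 2.68, 2.57, 2.44 and 2.59 on DTG arrays 1 to 4, against 2.31, 2.04, 2.30 and 2.32 on Control arrays 1 to 4. Control 2 was lower than the other 3 Control arrays, which lay within 2.30 to 2.32. Med4 rose by 0.33 (SE 0.10, adjusted p = 0.038). Med9 averaged 0.60 ± 0.11 in DTG and 0.26 ± 0.17 in Control (SD, n = 4 each) and rose by 0.34 (SE 0.11, adjusted p = 0.0498), at the edge of the threshold. Med7, Med10 and Med31 were called in each of the 8 fits that left out 1 array. Med4 was called only in the fits without DTG 3 and without Control 1, and Med9 in none of the 8, with the lowest log2 change of Med9 over all settings at 0.25.

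The other 4 middle module genes did not pass. Med19 (log2 fold change 0.18, SE 0.09, adjusted p = 0.13) and Med26, whose product recruits elongation factors to the polymerase (log2 fold change 0.15, SE 0.08, adjusted p = 0.17), still had no overlap, with all DTG values the higher. Groups did not overlap in 12 of the 31 members, and in 34.6% of all genes tested. Med21 had levels of 1.08, 0.95, 1.25 and 1.05 on DTG arrays 1 to 4, against 1.22, 0.98, 1.29 and 0.81 on Control arrays 1 to 4 (log2 fold change 0.01, SE 0.13, adjusted p = 0.98). Its groups overlapped throughout. Med1, which binds nuclear receptors such as the vitamin D receptor, had levels of 2.81, 2.77, 2.61 and 2.68 on DTG arrays 1 to 4, against 2.92, 2.71, 2.79 and 2.65 on Control arrays 1 to 4 on its brightest probe (log2 fold change -0.05, SE 0.10, adjusted p = 0.70). The DTG values lay inside the Control range except on DTG 3, which was lower.

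Med14, the backbone gene, moved the other way. Its level was 0.21, -0.08, -0.16 and 0.14 on DTG arrays 1 to 4, against 0.78, 0.48, 0.63 and 0.65 on Control arrays 1 to 4. All DTG arrays lay below all Control arrays, and Med14 fell by 0.61 (SE 0.11, adjusted p = 0.0058). It was called lower in each of the 8 fits that left out 1 array. Med14 lies on the X chromosome, so its change is also given by Xist class. With the Xist class as a covariate the change was -0.60. Within the 5 arrays of high Xist it was -0.50 (adjusted p = 0.088) and within the 3 of low Xist -0.78, below 0 in both. The low class holds 1 DTG array, so its value has no spread among DTG arrays behind it. Its 2 other probes read below 0 as well. Probe A_66_P136955 gave -3.55, -3.12, -3.65 and -3.27 on the DTG arrays, against -2.26, -2.57, -2.36 and -2.28 on the Control arrays, a fall of 1.03 (SE 0.14, adjusted p over all probes = 0.0014). Probe A_55_P2163837 gave a log2 fold change of -0.38 (SE 0.14, adjusted p over all probes = 0.065), again with no overlap.

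**Figure D2:**
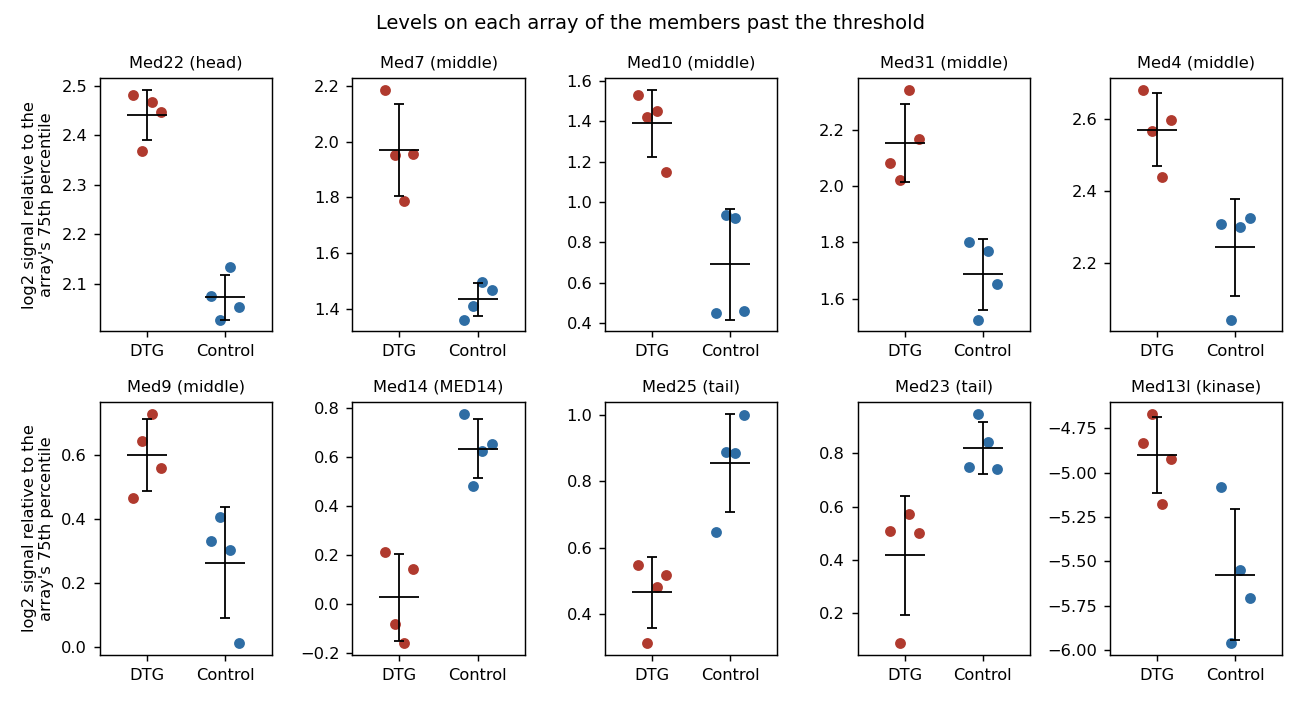
Level on each array (log2 signal minus the 75th percentile of the array) of the 10 members past the threshold, DTG left and Control right, with mean and SD (n = 4 each). Axes differ between panels and do not start at 0. The groups overlap only for Med13l, where Control 1 at -5.08 lies above DTG 3 at -5.18.

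Of the 5 tail genes 2 fell and 3 did not pass. Med25, whose product is a target of acidic activators and ETS factors, had levels of 0.55, 0.31, 0.48 and 0.52 on DTG arrays 1 to 4, against 0.65, 0.89, 0.88 and 1.0 on Control arrays 1 to 4. The groups did not overlap, and Med25 fell by 0.39 (SE 0.10, adjusted p = 0.023). Med23, whose product is contacted by ELK1, had levels of 0.51, 0.09, 0.57 and 0.50 on DTG arrays 1 to 4, against 0.75, 0.95, 0.84 and 0.74 on Control arrays 1 to 4. DTG 2 was far below the other 3 DTG arrays, which lay at 0.50 to 0.57, themselves below all Control arrays. Med23 fell by 0.40 (SE 0.12, adjusted p = 0.038). The call of Med25 was lost without DTG 2, Control 2, Control 3 or Control 4. That of Med23 was lost on leaving out any 1 array other than DTG 3.

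Med16, another tail subunit, had a log2 fold change of -0.23 (SE 0.10, adjusted p = 0.11) on its brightest probe, with every DTG array below every Control array. Its second probe fell by 0.42 (SE 0.10, adjusted p over all probes = 0.014). Med15, which binds SREBP and SMAD factors, lay on the other side of 0 (log2 fold change 0.24, SE 0.12, adjusted p = 0.16). Med24 had levels of 0.87, 0.94, 1.59 and 1.14 on DTG arrays 1 to 4, against 1.16, 1.11, 1.13 and 0.85 on Control arrays 1 to 4 (log2 fold change 0.08, SE 0.16, adjusted p = 0.75). Its value on DTG 3 was the highest of the 8 and that on Control 4 the lowest. The tail was thus uneven, with log2 fold changes from -0.40 to 0.24 and a median of -0.23.

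In the head module 1 of 10 measured genes rose and 9 did not pass, and the median log2 fold change was 0.09. Med22, whose product pairs with MED11 at the base of the head, had levels of 2.48, 2.37, 2.47 and 2.45 on DTG arrays 1 to 4, against 2.08, 2.03, 2.13 and 2.05 on Control arrays 1 to 4. These were tight groups with a clear gap, and Med22 rose by 0.37 (SE 0.08, adjusted p = 0.0088). It was called in each of the 8 fits that left out 1 array. Its partner gene Med11 had a log2 fold change of -0.04 (SE 0.10, adjusted p = 0.75). Med17, the central architectural subunit of the head, had levels of 1.64, 1.39, 1.52 and 1.43 on DTG arrays 1 to 4, against 1.54, 1.38, 1.51 and 1.44 on Control arrays 1 to 4 (log2 fold change 0.03, SE 0.09, adjusted p = 0.83). Med17 overlapped fully between the groups.

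MED8, MED18 and MED20 form a movable part of the head. Med8 had a log2 fold change of 0.24 (SE 0.10, adjusted p = 0.11), and Med20 had a log2 fold change of 0.09 (SE 0.12, adjusted p = 0.61). Med18 had the highest log2 fold change of the head, 0.48, but also the widest spread of any member (SE 0.30, adjusted p = 0.24), with SDs of 0.48 in DTG and 0.49 in Control. The products of Med27, Med28, Med29 and Med30 are placed in the head here and in the tail by some structures. Med27, Med28 and Med29 read 0.09, 0.16 and 0.06 in log2 fold change, and Med30 -0.18, the lowest of the head (adjusted p = 0.20 for Med30). None of these 4 passed.

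In the kinase module 1 of 6 genes rose and 5 did not pass. Med13l, 1 of the paralogs that tether the module to the core, had levels of -4.83, -4.67, -5.18 and -4.93 on DTG arrays 1 to 4, against -5.08, -5.96, -5.55 and -5.70 on Control arrays 1 to 4. Control 1 lay above DTG 3, so the groups overlapped. Med13l rose by 0.67 (SE 0.19, adjusted p = 0.029), and among the 8 fits without 1 array the call held only without DTG 3 and without Control 1. Med13l was the dimmest member, though well above background on all 8 arrays. The negative-control spots were also brighter on DTG arrays, as given above, and their part in this change was not tested. The paralog Med13 had levels of -3.96, -3.95, -3.88 and -4.10 on DTG arrays 1 to 4, against -3.61, -4.09, -3.80 and -4.06 on Control arrays 1 to 4 (log2 fold change -0.08, SE 0.13, adjusted p = 0.63), with overlapping groups.

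The kinase genes themselves did not pass. Cdk8 had levels of 2.52, 2.50, 2.43 and 2.53 on DTG arrays 1 to 4, against 2.43, 2.17, 2.46 and 2.22 on Control arrays 1 to 4 on its brightest probe (log2 fold change 0.17, SE 0.10, adjusted p = 0.20). Its paralog Cdk19 lay on the other side of 0 (log2 fold change -0.24, SE 0.11, adjusted p = 0.15). Ccnc, the cyclin that activates both, had a log2 fold change of 0.40 (SE 0.17, adjusted p = 0.11). Med12, the subunit that switches on the kinase and is X-linked, had a log2 fold change of -0.15 (SE 0.14, adjusted p = 0.41). Within the arrays of high Xist the log2 change of Med12 was -0.06 and within those of low Xist -0.31.

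Several members were measured by more than 1 probe, and these did not always tell the same story. Of 13 such members, 10 had all probes on one side of 0, and 3 (Med1, Med28 and Cdk8) had probes on both sides. Med28 did so only through a dim probe (log2 fold change -0.02, SE 0.49), while its other probes read 0.16 and 0.18. That probe was well above background on 2 of 4 DTG arrays and all 4 Control arrays. The second Med8 probe was so on 0 of 4 DTG arrays and 3 of 4 Control arrays. Both were kept through their Control arrays alone. Cdk8 was the plainest case, with 3 probes annotated to the same transcript. Probe A_55_P2185548 read 1.27, 1.31, 1.06 and 1.36 on DTG arrays 1 to 4, against 0.93, 0.52, 0.77 and 0.80 on Control arrays 1 to 4. That was a rise of 0.50 (SE 0.12, adjusted p over all probes = 0.014). Probe A_52_P504068 read -0.31, -0.57, -0.16 and -0.38 on the DTG arrays, against 0.11, 0.31, 0.33 and 0.13 on the Control arrays. That was a fall of 0.57 (SE 0.11, adjusted p over all probes = 0.0073). The groups did not overlap on either probe, and no direction can be given for Cdk8 as a gene.

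Med1 had 4 probes, of which 3 had log2 fold changes of -0.05, 0.01 and 0.04. The dimmest, A_55_P2024095, is annotated to a transcript of Med1 that none of the others is assigned to. The same holds for A_51_P324082, which read 0.01. Probe A_55_P2024095 read -2.75, -2.67, -2.93 and -2.96 on the DTG arrays, against -3.63, -3.96, -3.95 and -3.67 on the Control arrays. That was a rise of 0.97 (SE 0.12, adjusted p over all probes = 9.8e-04). The second Med7 probe rose by 0.78 (SE 0.14), in the same direction as the first. The second Ccnc probe rose by 0.70 (SE 0.13, adjusted p over all probes = 0.0063), while the first did not pass. A dim second probe of Med12 was well above background on 0 of 4 DTG arrays and on all 4 Control arrays. It was kept through its Control arrays alone, so its call is not read as a result. With DTG levels raised to at least the lowest signal well above background on their array, the mean Control level was 1.91-fold the mean DTG level. This value describes the probe, and no fall of Med12 is read from it. Where the probes of a gene were averaged, Med16 was called lower and Ccnc higher, and Med4 lost its call. Med12 was called lower too, but its average takes in the dim probe kept through Control arrays alone. Med9 has 1 kept probe, so its change was the same, and its adjusted p by limma went from 0.0498 to 0.051.

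**Figure D3:**
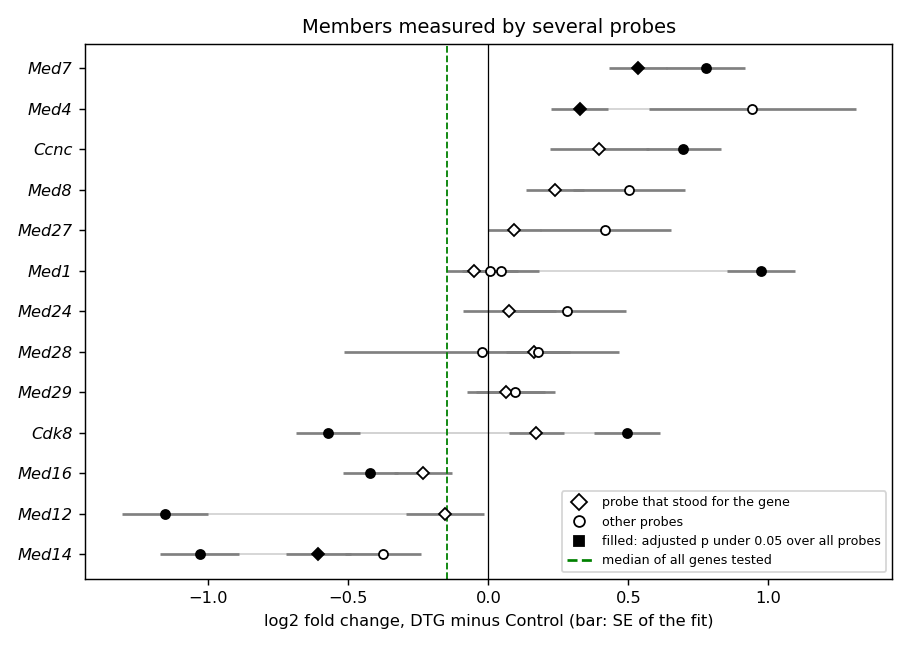
Log2 fold change, DTG minus Control, of each probe of the 13 members with several probes, with the standard error as bars. Diamonds mark the probe that stood for the gene and filled points passed an adjusted p of 0.05 over all named probes. Cdk8 has filled points on both sides of 0, and the 3 probes of Med14 all lie below 0. The filled Med12 point is a probe that was not well above background on the DTG arrays.

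Module medians were also taken on each array, as the median deviation of the module's genes from their Control means. For the middle module these were 0.20, 0.32, 0.21 and 0.30 on DTG arrays 1 to 4, against 0.07, -0.02, 0.06 and -0.10 on Control arrays 1 to 4. For the tail they were -0.19, -0.27, -0.24 and -0.25 on the DTG arrays, against -0.03, 0.05, 0.03 and -0.15 on the Control arrays. Both modules separated the groups on every array, in opposite directions. For the kinase module the DTG values, 0.06, 0.06, 0.11 and 0.06, lay within the Control range of -0.15 to 0.10 except on DTG 3. All genes tested had medians of -0.10, -0.19, -0.12 and -0.13 on the DTG arrays, against 0.05, -0.02, 0.03 and -0.06 on the Control arrays. All genes thus separated the groups in the same direction as the tail, and the tail values lay only slightly under theirs. With Med27 to Med30 placed in the tail, the tail's median log2 fold change lay above that of all genes.

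**Figure D4:**
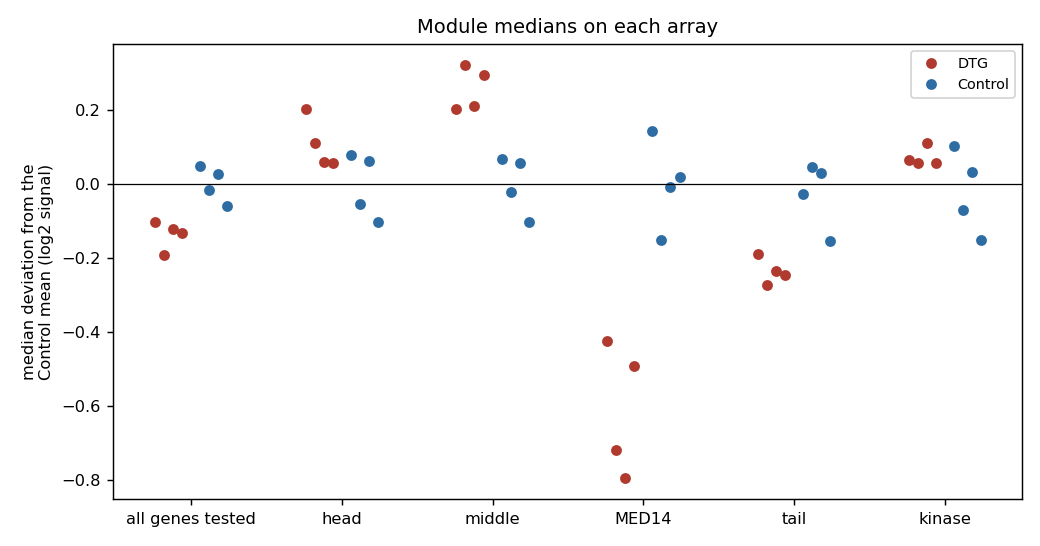
Median deviation of each module's genes from their mean over the Control arrays (log2 signal), 1 point per array, DTG in red left of Control in blue. The middle module lies above 0 on all 4 DTG arrays, and MED14 and the tail lie below it.

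The direction of a small change depended on how the arrays were scaled. When the arrays were scaled on their spike-in spots, the median of all genes was 0.32 in place of -0.15, and 23 of the 31 members were called higher, beside 33.8% of all genes. On that scale Med25 and Med23 read 0.08 and 0.06, so their fall holds only relative to most other genes, and Med14 read -0.14 (adjusted p = 0.50). The share of calls that were lower, over all genes, was 65.6% with the scale used here, 41.6% without scaling and 7.52% on the spike-in scale. Scaling by the 75th percentile, the median or the spike-ins, or not at all, moves all genes of an array alike, so a module's place relative to all genes could differ only with quantile scaling. Relative to all genes the middle module stood at 0.47 with the scale used and at 0.44 with quantile scaling. The tail stood at -0.09 relative to all genes with the scale used and at 0.08 with quantile scaling, so its side of the median of all genes depended on this choice. Med14 stood at -0.46 with the scale used and at -0.51 with quantile scaling.

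**Figure D5:**
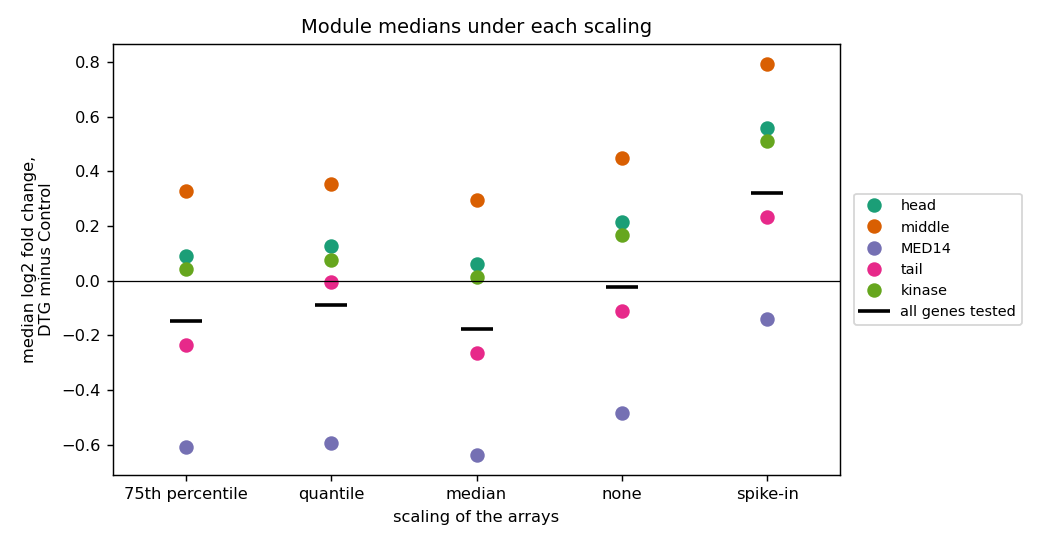
Median log2 fold change, DTG minus Control, of each module (points) and of all genes tested (bars) under 5 scalings of the arrays. Of the 5 scalings 4 shift all points and the bar together, as at the spike-ins, where the bar stands at 0.32. With quantile scaling the tail lies above the bar.

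The fit was also run within each Xist class, where fewer arrays enter. Among the 5 arrays of high Xist Med13l, Med22 and Med31 rose and 0 members fell by limma. Of all genes tested, 6.73% were called higher and 7.91% lower there. Of the 3 arrays of low Xist 1 is DTG, so only the sizes of change are given for that class. The log2 change of Med7 was 0.54 within high Xist and 0.52 within low Xist, and that of Med10 was 0.68 and 0.74. Med31 read 0.61 within high Xist and 0.24 within low Xist, and Med22 0.42 and 0.26. These 4 genes kept a change above 0 in both classes. With the class as a covariate 6 members rose and 3 fell, beside 11.7% and 21.8% of all genes, and the call of Med9 was lost.

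Genes of the machinery that Mediator works with were read from lists, as counts beside the 32.5% called among all genes. Of 18 general transcription factor genes 6 rose, 3 fell and 9 did not pass, with a median log2 fold change of 0.22. Gtf2b, which encodes TFIIB, rose by 1.09 (SE 0.11, adjusted p = 3.4e-04). Tbp, which encodes the TATA-binding protein, rose by 0.66 (SE 0.08, adjusted p = 0.0010). Of 12 measured TAF genes of TFIID 4 rose and 1 fell, among them Taf7, which rose by 2.43 (SE 0.26, adjusted p = 4.6e-04), and Taf12, which rose by 0.47 (SE 0.09, adjusted p = 0.0065). Of 10 measured RNA polymerase II subunit genes 1 rose and 3 fell. Polr2i fell by 0.43 (SE 0.10, adjusted p = 0.016) and Polr2e fell by 0.39 (SE 0.11, adjusted p = 0.029).

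Of 20 measured pausing and elongation factor genes 4 rose and 2 fell. Ell3, of the ELL family, fell by 1.45 (SE 0.10, adjusted p = 7.2e-05), and its level was -1.56 ± 0.04 in DTG and -0.11 ± 0.14 in Control (SD, n = 4 each). Eaf1, which encodes an ELL-associated factor, rose by 1.24 (SE 0.11, adjusted p = 2.0e-04). Cohesin meets Mediator at enhancers, and of 10 genes of cohesin, its loader and its regulators WAPL and PDS5, 1 rose and 3 fell. Smc1a, Smc3, Rad21 and Stag2 of cohesin and Nipbl and Mau2 of the loader did not pass. Pds5a fell by 0.76 (SE 0.15, adjusted p = 0.0067) and Stag1 fell by 0.46 (SE 0.09, adjusted p = 0.0081). Of 13 nuclear receptors that bind MED1, 1 rose and 4 fell. Rarg, a retinoic acid receptor of epidermis, fell by 0.95 (SE 0.10, adjusted p = 7.8e-04) and Ppara fell by 0.61 (SE 0.09, adjusted p = 0.0020). Vdr was among the 8 that did not pass. Of 9 other coactivators 1 fell, Ncoa3 (log2 fold change -0.50, SE 0.10, adjusted p = 0.0078). Of 14 other factors with a described Mediator contact 1 rose and 1 fell. Gli3, whose product is bound by MED12, fell by 0.57 (SE 0.12, adjusted p = 0.0077), and Trp53 rose by 0.54 (SE 0.15, adjusted p = 0.028). Med12l, a paralog of Med12 outside the 32 genes, was well above background on 0 of 4 DTG arrays and 3 of 4 Control arrays, so no fold is given.

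Markers of the cell types in skin were read beside all genes tested, of which 11.2% were called higher and 21.3% lower. The median log2 fold change of all genes was -0.15. Skeletal muscle and hair follicle markers had medians of -0.22 and -0.19, near that of all genes, and T cell markers had the lowest, -0.59. Summed marker levels (log2) of T cells were 2.02 to 2.37 on DTG arrays and 2.60 to 2.84 on Control arrays, with no overlap, and 2 of the 4 measured markers fell. Those of Schwann cells were 3.55 to 3.74 on DTG arrays and 3.76 to 4.09 on Control arrays, and 3 of 5 markers fell. Those of skeletal muscle were 6.53 to 6.65 on DTG arrays and 6.77 to 6.90 on Control arrays, and 1 of 6 fell. Keratinocyte markers summed to 6.73 to 7.0 on DTG arrays and 6.98 to 7.38 on Control arrays, and 2 of 8 rose and 3 fell. Among 6 adipocyte markers 5 fell, and the sums of the 5 with a value on every array were 5.56 to 5.64 on DTG arrays and 5.82 to 6.07 on Control arrays, with no overlap. Fibroblast and melanocyte sums were 6.74 to 7.02 and 1.62 to 2.26 on DTG arrays, against 6.95 to 7.46 and 2.26 to 2.85 on Control arrays. Hair follicle sums, over the 5 of 6 markers with a value on every array, were 4.37 to 4.69 on DTG arrays and 4.54 to 4.97 on Control arrays. In each of these 3 lists 2 markers fell, and 1 hair follicle marker rose. Endothelial, macrophage and neutrophil sums overlapped widely, at 1.52 to 2.07, 4.25 to 4.67 and 5.06 to 5.32 on DTG arrays, against 1.42 to 1.93, 4.33 to 4.77 and 4.86 to 5.60 on Control arrays. In each of these lists 1 marker rose, and 1 neutrophil marker fell. The markers were not read on the spike-in scale, where the median of all genes was 0.32, so their falls are relative to most other genes. The part of these differences in the changes of the Mediator genes was not tested, and in whole skin fewer cells of a type and less RNA per cell cannot be told apart.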

How the data were processed

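Total RNA of whole skin from 4 DTG and 4 Control samples was measured on 1-colour Agilent arrays, whose 62976 spots cover probes of a design on build mm9, per the file headers. The authors deposited 1 scanner table per array, whose intensity values are background-corrected spot signals made by Agilent's Feature Extraction software (the file headers name version 11.5.1.1, while the submitters' processing notes name 10.7). A deposited table of processed intensity values for 43861 probes matched these signals, not logged, within a relative difference of 0.001 in 99.6% of values.

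Outlier spots were dropped, spots of 1 probe were averaged, and the 75th percentile of an array's non-control probes was subtracted from its log2 signals. The tables held RefSeq accessions and no gene symbols. Without versions, 26762 of 55681 probes (48.1%) matched RefSeq genes of GRCm38.p6, a table used for names only. Probes well above background on at least 3 of 4 arrays of either group were kept, and the brightest probe stood for its gene. Groups were compared with limma 3.58.1 (R 4.3.3, DTG minus Control, two-sided, Benjamini-Hochberg over 17740 genes). Adjusted p-values of second probes came from a fit over all named probes.

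Members and lists were chosen with earlier results of these data known. Values were given on every array, per module, for up to 4 called members by smallest p and the uncalled member nearest to no change, for Med14, and for members whose probes differed in sign with a call. In each related list up to 2 called genes with the smallest p were named. The number of arrays limits precision: the median standard error was 0.11 for members and 0.14 for all genes. On data simulated for this comparison (17740 genes) the fit recovered 14.9% of changes of 0.5, 64.2% of 1 and 95.5% of 2 log2 units, with 10 false calls. The adjusted threshold depends on how many genes change, and the simulated number was not matched to the 32.5% called here. These rates therefore need not hold for the members. Other scalings, background correction by normexp (on spot medians, since no mean signal was in the tables), probe filters, averaged probes, Xist class and leaving out each array were tried.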

Additional observations from a re-analysis of the deposited data

Results flagged for a closer look

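In 62 sets of 4 arrays (31 members in 2 groups) a single array was checked for standing apart from the other 3, and 4 did so, where chance gives about 1 in 20. Med27 on DTG 1 was at 0.49, against 0.30 to 0.33 on the other DTG arrays. Med23 on DTG 2 was at 0.087, against 0.50 to 0.57 on the other DTG arrays. Med4 on Control 2 was at 2.04, against 2.30 to 2.32 on the other Control arrays. Med24 on Control 4 was at 0.85, against 1.11 to 1.16 on the other Control arrays. The 4 values lay on 4 different arrays. Med23 and Med4 passed the threshold over all arrays. Without DTG 2 the call of Med23 was lost, and without Control 2 that of Med4.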

How the results depend on the processing

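No paired analysis was possible because the labels give the groups no shared replicate numbers. Medians are relative to all genes, and the cause of each change was not tested. Of 31 members, 7 were called higher and 3 lower in DTG with the scale used, beside 11.2% and 21.3% of all genes. Spike-in scaling gave 23 higher and 0 lower, beside 33.8% and 2.75% of all genes. Without scaling 8 were higher and 1 lower, beside 12.6% and 9% of all genes. Averaging probes gave 6 higher and 5 lower, beside 11.6% and 20.5% of all genes, with Med12 among the lower through its dim probe. The medians were then 0.28 for all members, -0.19 for the tail and 0.11 for the kinase module. Quantile scaling put the middle module at 0.44 and the tail at 0.084. Normexp gave 0.18 for all members, 0.18 for the head and 0.40 for the middle module. With probes above background on all 8 arrays, all members stood at 0.20 and the middle module at 0.44, and with no filter at 0.20 and 0.43. With Med27 to Med30 in the tail, the head stood at 0.31 and the tail at 0.21. The arrays of high Xist gave 3 higher and 0 lower, beside 6.73% and 7.91% of all genes. They put all members at 0.33, the head at 0.32 and the tail at 0.020. Those of low Xist, of which 1 is DTG, put the tail at -0.20 and the kinase module at 0.11. Leaving out 1 array gave 4 to 6 higher and 1 to 3 lower, beside 22.9% to 29.1% of all genes called, with 0.24 to 0.29 for all members, 0.40 to 0.49 for the middle and 0.14 to 0.25 for the kinase module.

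Among the genes given on every array, changes of sign were seen for 5 that did not pass and 2 that did. Med1 was 0.020 with quantile scaling, 0.073 without scaling, 0.42 on spike-ins, 0.24 with probes averaged and 0.021 at high Xist. Med13 was 0.040 without scaling, 0.38 on spike-ins, 0.018 with normexp and 0.094 at high Xist. Med17 was -0.0040 with median scaling and -0.14 at low Xist. Med21 was -0.025 with median scaling, -0.0074 with normexp and -0.31 at low Xist, and Med24 was -0.20 at low Xist. The called Med25 and Med23 were 0.078 and 0.064 on spike-ins. Leaving out 1 array put Med1 at -0.090 to 0.0018, Med13 at -0.15 to 0.0098, Med17 at -0.019 to 0.063, Med21 at -0.083 to 0.079 and Med24 at -0.077 to 0.16. The signal over background was lower on DTG arrays, which limits dim genes such as Med13l.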
